A study of Mus musculus with 12 samples.

Results

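The genes described here are 34 markers of blood cells that are not T cells, taken as a check on how pure the sorted T-lineage samples were and on whether leukaemia cells carried transcripts of other lineages. The 54 probe sets annotated to 1 listed gene alone were taken, and of several for a gene the one brightest on average stood for it. All 34 of 34 listed genes were found, out of 18193 genes with a single-gene probe set. They comprise 13 macrophage and monocyte genes, 1 plasmacytoid dendritic cell gene, 7 granulocyte genes, 7 B cell genes and 6 genes of MHC class II and its machinery.

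RNA was measured on 12 Affymetrix mouse expression arrays, 3 in each of 4 groups of sorted mouse cells. The first group, MBD2-/- leukaemia, holds GFP+ bone marrow cells of recipient mice with MBD2-deleted, Notch1-driven T-cell acute lymphoblastic leukaemia, and the second, MBD2 wt leukaemia, the same kind of cells with wild-type MBD2. MBD2-/- thymocytes and MBD2 wt thymocytes are CD4+CD8+ double positive cells sorted from steady-state mice of each genotype. The leukaemia cells were sorted when more than 50% of blood leukocytes were GFP+, so both leukaemia groups share the Notch1 driver, the GFP mark and passage through a recipient, which neither thymocyte group has. Neither the sex and age of the mice nor the day of hybridisation is in the labels, which also leave unsaid whether replicates are separate animals, so p-values measure the spread between these samples only. MBD2 is a protein that binds methylated CpG dinucleotides in DNA. The Mbd2 probe set read 54.4 ± 12.4 in MBD2-/- leukaemia and 820 ± 119 in MBD2 wt leukaemia, and 72.1 ± 10.7 in MBD2-/- thymocytes and 1136 ± 206 in MBD2 wt thymocytes (SD, n = 3 each).

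Macrophages and granulocytes of the bone marrow and thymus are rich in lysozyme, complement C1q, Fc receptor adaptors and granule proteins, and B cells in the signalling chains of their antigen receptor. MHC class II molecules present peptides on B cells, dendritic cells, macrophages and thymic epithelium, under control of the transactivator encoded by Ciita. Double positive thymocytes normally make little of any of these products, and they sit in tight contact with thymic macrophages and dendritic cells.

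Levels below are deposited intensities, which are linear and carry no unit, and differences are on the log2(intensity + 16) scale, which understates the change of dim genes. An intensity of 35.3 is taken as background, and values at or below it have no order. It is the highest reading of 27 control probe sets on the 7 arrays where added control transcripts gave no signal. The same limit is applied to all 12 arrays. At this limit, 7 of the 34 genes stayed at background on all 12 arrays, 27 exceeded it on at least 1 array, and 6 exceeded it on all 12. The label of the sorted cells was checked here on the T-lineage genes Cd4, Cd8a and Thy1 only. Cd4 and Cd8a, the coreceptors of double positive cells, read at least 1285 and 4844 on every thymocyte array. In MBD2-/- leukaemia Cd4 read 91.8 to 94.2 and Cd8a 132 to 388, and in MBD2 wt leukaemia Cd4 read 253 to 299.6 and Cd8a 2123 to 3082. Thy1 was lower in MBD2-/- than in MBD2 wt leukaemia (log2 −2.37, limma adjusted p = 2.01e-04). Among the 7 genes at background were 4 that define the B lineage, namely the receptor chain Cd79a, the surface antigen Ms4a1 and the transcription factors Pax5 and Ebf1. The other 3 were Fcgr3, which encodes an Fc receptor, the macrophage surface receptor Adgre1, and the granule enzyme Mpo.

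**Figure D1:**
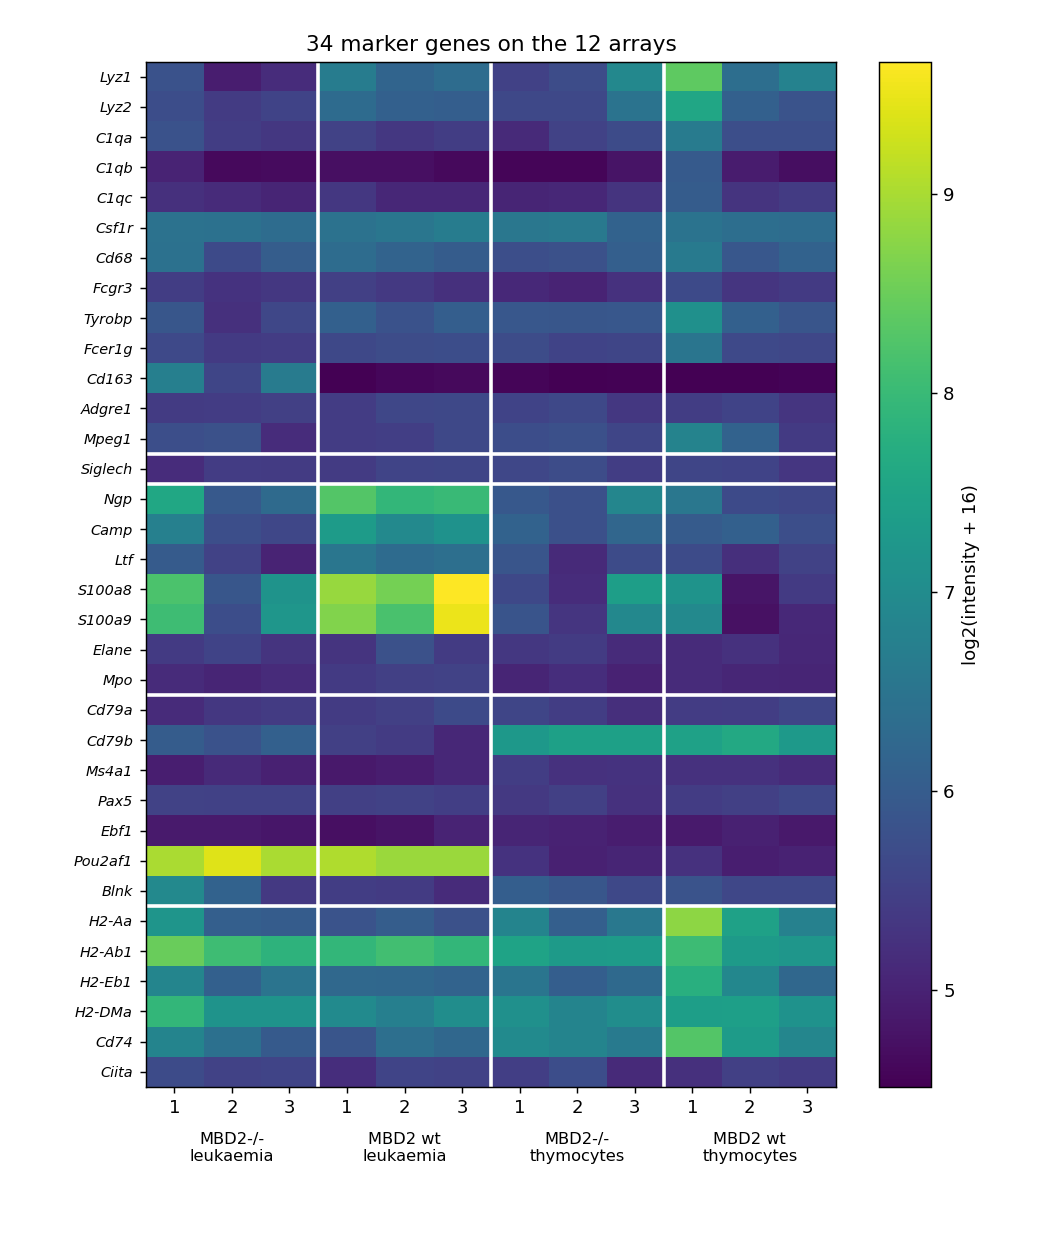
Log2(intensity + 16) of the 34 marker genes (rows, grouped from top to bottom as macrophage, plasmacytoid dendritic, granulocyte, B cell and MHC class II genes) on the 12 arrays (columns, 3 per group). Pou2af1 is brighter on all 6 leukaemia arrays than on the thymocyte arrays, Cd163 on the 3 MBD2-/- leukaemia arrays than on the other 9, 5 of 7 granulocyte genes are brightest on the MBD2 wt leukaemia arrays, and 10 macrophage and 3 MHC class II genes on array 1 of the MBD2 wt thymocytes.

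Genes were called by limma at a Benjamini-Hochberg adjusted p under 0.05 over all genes tested. In MBD2-/- minus MBD2 wt leukaemia, Cd163 and Cd79b were higher and Lyz1, Lyz2, Ltf and Mpo lower, 6 of 34 genes or 17.6% against 16.2% of all genes tested (9.19% higher and 6.98% lower), a share near the background. Groups did not overlap for 13 of 34 there, against 33.4% of all genes. In MBD2-/- leukaemia minus MBD2-/- thymocytes, Pou2af1, Cd163 and H2-Ab1 were higher and Cd79b lower, 11.8% against 29.4% of all genes (18.5% higher and 11.0% lower). In MBD2 wt leukaemia minus MBD2 wt thymocytes, 7 genes were higher (Pou2af1, Ngp, Camp, Ltf, S100a8, S100a9 and Mpo) and 3 lower (Cd79b, H2-Aa and Cd74), 29.4% against 33.9% of all genes (19.7% higher and 14.2% lower). With the replicate number as a block, a pairing read from correlations of these same arrays and stated by no label, 8 were lower there. The additions were Blnk, C1qa, C1qc, H2-DMa and H2-Eb1 (limma adjusted p from 0.0250 to 0.0486), and Elane passed as higher (log2 0.34, limma adjusted p = 0.0441). The shares of all genes given here come from the fit without the block, so these additions have no share beside them. Between thymocyte genotypes 0 of 34 passed, against 0.0324% of all genes. The genotype effect in leukaemia minus that in thymocytes was called for Cd163 and Cd79b, 2 of 34 against 12.6% of all genes (7.86% higher and 4.74% lower), both being higher. Each leukaemia group enters both a genotype comparison and a comparison with thymocytes, so these comparisons share arrays.

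**Figure D2:**
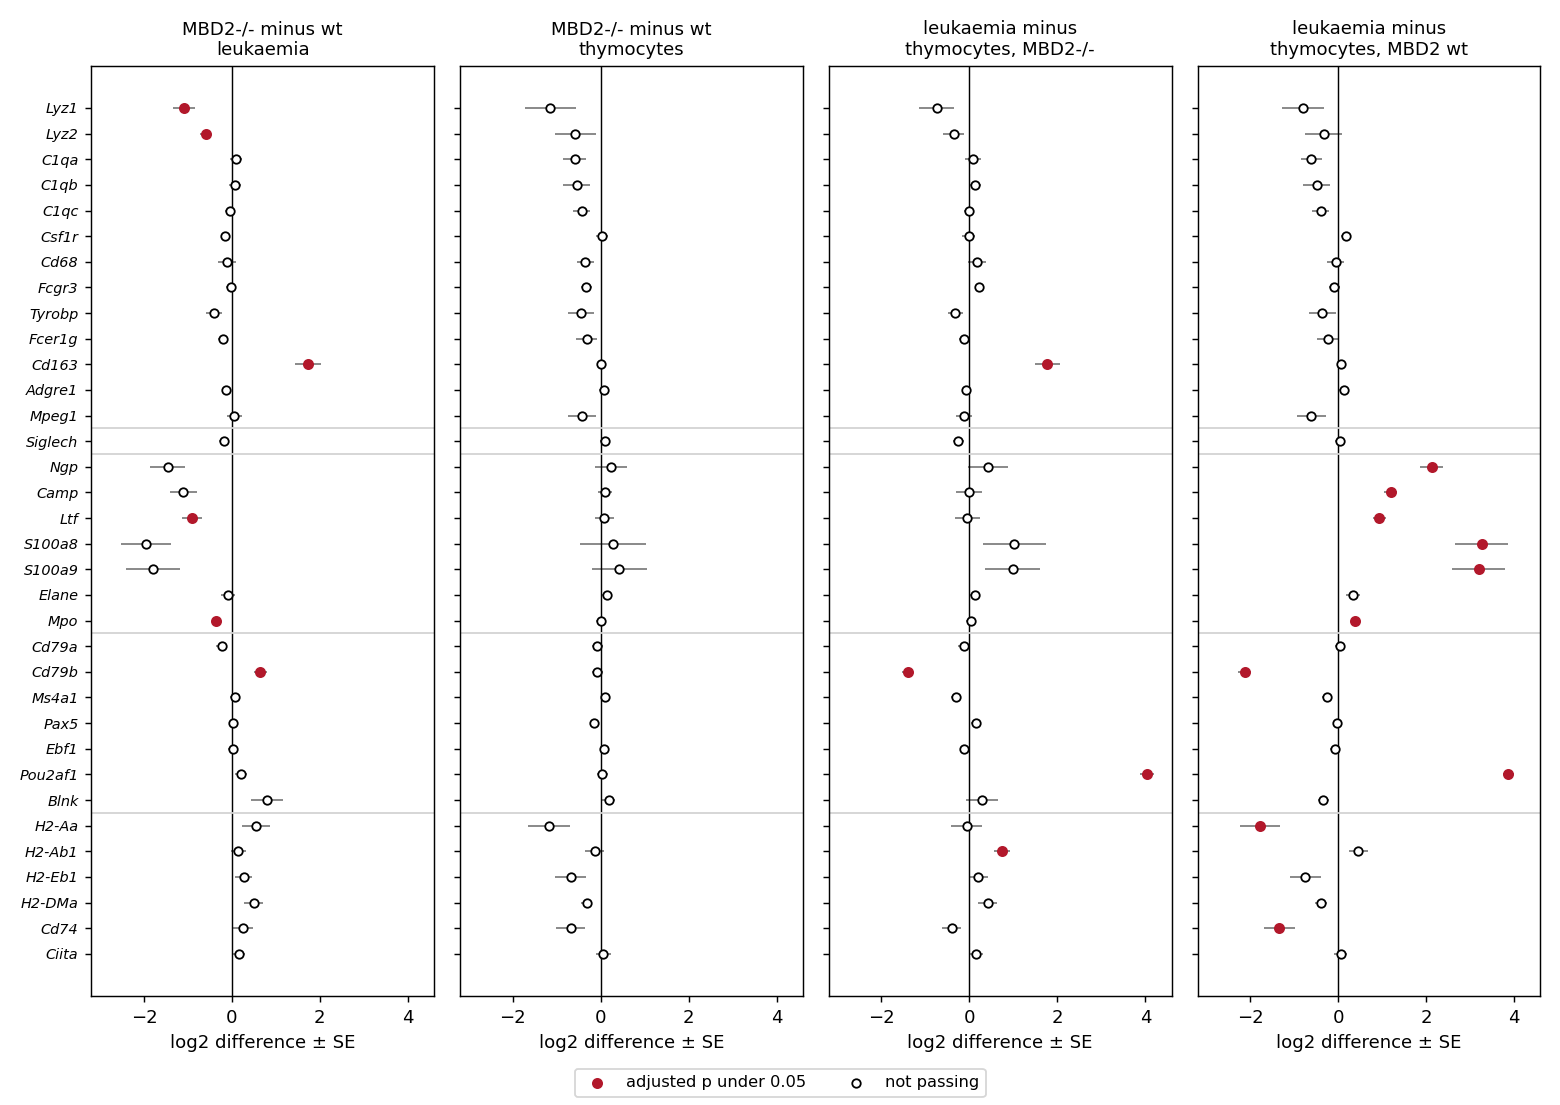
Log2 difference with its standard error for the 34 genes (rows) in 4 comparisons (panels), each named in its title, with filled red points where the adjusted p was under 0.05 and horizontal lines between the gene groups. The 7 granulocyte genes lie left of 0 in the leukaemia genotype panel and right of it in the wild-type leukaemia minus thymocyte panel, and Pou2af1 lies at 4.04 and 3.87 in the panels of leukaemia minus thymocytes.

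Among B cell genes, Pou2af1 was the only one of 7 that passed as higher in leukaemia than in thymocytes, in both genotypes. Pou2af1, which encodes the coactivator OBF-1 of the octamer factors, read 498, 661 and 498 on the MBD2-/- leukaemia arrays and 510.2, 456 and 458 on the MBD2 wt leukaemia arrays. It read 22.8, 15.6 and 17.0 in MBD2-/- thymocytes and 21.9, 14.7 and 16.3 in MBD2 wt thymocytes. Every leukaemia array was thus above background and every thymocyte array below it. The log2 difference of MBD2-/- leukaemia minus MBD2-/- thymocytes was 4.04 (SE 0.15, limma adjusted p = 4.89e-06), and that of MBD2 wt leukaemia minus MBD2 wt thymocytes was 3.87 (SE 0.12, limma adjusted p = 6.17e-06). Against thymocytes set at background, it was at least 15.5-fold higher in MBD2-/- leukaemia and at least 13.5-fold higher in MBD2 wt leukaemia (the mean log2 intensity of the brighter group over that of the dimmer one, with readings under 35.3 raised to 35.3). Between the leukaemia genotypes Pou2af1 differed by 0.20 (SE 0.14, limma adjusted p = 0.407). MBD2 binds methylated CpG, so the promoter is shown with its 8 CpG dinucleotides in capitals; 51.4% of 32851 promoter windows hold fewer. The window runs from 250 bases before to 50 after the RefSeq start (GRCm38.p6, chr9:51213440-51213739, plus strand).
Pou2af1: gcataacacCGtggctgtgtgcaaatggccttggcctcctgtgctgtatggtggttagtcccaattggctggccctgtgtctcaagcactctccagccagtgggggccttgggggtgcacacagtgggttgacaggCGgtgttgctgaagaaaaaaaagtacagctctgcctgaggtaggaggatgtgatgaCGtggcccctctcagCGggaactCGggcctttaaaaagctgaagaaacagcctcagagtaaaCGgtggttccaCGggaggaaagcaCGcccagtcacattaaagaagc

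Cd79b, which encodes a signalling chain of the B cell receptor, was lower in leukaemia than in thymocytes. It read 48.5, 40.1 and 52.2 in MBD2-/- leukaemia and 29.1, 26.4 and 17.8 in MBD2 wt leukaemia, with no overlap between the genotypes. In thymocytes it read 138, 157 and 158 without MBD2 and 161, 180.2 and 138 with it. Cd79b therefore lay above background on all 6 thymocyte arrays, although its partner Cd79a was at background there. The leukaemia minus thymocyte difference was log2 −1.41 without MBD2 (SE 0.12, limma adjusted p = 1.56e-04) and −2.13 with it (SE 0.15, limma adjusted p = 8.64e-05). Within leukaemia it was 0.65 higher in MBD2-/- cells (SE 0.14, limma adjusted p = 0.0248), at least 1.32-fold above a wild-type group at background, and that call was lost without MBD2 wt array 2 or 3 or without MBD2-/- array 1 or 3 (highest adjusted p = 0.0760). The adaptor gene Blnk, which links the B cell receptor to its downstream enzymes, read 106, 54.0 and 25.5 in MBD2-/- leukaemia and 27.7, 26.7 and 19.5 in MBD2 wt leukaemia. The groups overlapped, since array 3 of the knockout lay among the wild-type arrays, and the difference was not called (log2 0.81, SE 0.36, limma adjusted p = 0.200). It was called as higher with the poly-A signal of the arrays, described below for the granulocyte genes, as a block (log2 1.05, adjusted p = 0.0454), and without that array 3 (log2 1.19, adjusted p = 0.0249).

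Among macrophage and monocyte genes, Cd163 was the one raised in MBD2-/- leukaemia. It encodes the scavenger receptor by which macrophages take up haemoglobin bound to haptoglobin. Its readings were 90.0, 32.0 and 85.0 in MBD2-/- leukaemia and 7.13, 8.16 and 9.01 in MBD2 wt leukaemia. In MBD2-/- thymocytes it read 8.05, 6.97 and 7.25, and in MBD2 wt thymocytes 6.83, 6.84 and 7.80. Arrays 1 and 3 of the MBD2-/- leukaemia were above background and array 2 was just below it, while the other 9 arrays were far below. The log2 difference in leukaemia was 1.73 (SE 0.30, limma adjusted p = 0.00879), and that of MBD2-/- leukaemia minus MBD2-/- thymocytes was 1.77 (SE 0.29, limma adjusted p = 0.00349). It was at least 1.77-fold higher in MBD2-/- leukaemia than either group, both being at background. The size of the leukaemia difference follows the added constant, at 2.81 with 1 and 0.85 with 64, and was 2.16 within the arrays that carried poly-A signal and 1.48 within those that did not. Cd163 passed the filter on low values only through its 3 MBD2-/- leukaemia arrays, so it had to differ once tested. With no filter its adjusted p within leukaemia was 0.0191. In thymocytes the genotypes differed by 0.02 (SE 0.09, limma adjusted p = 0.993).

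None of the other 12 macrophage genes passed as higher in MBD2-/- leukaemia. Csf1r, the receptor for the growth factor of macrophages, read 71.5, 70.3 and 64.7 in MBD2-/- leukaemia and 71.9, 76.9 and 86.0 in MBD2 wt leukaemia, lower in the knockout without overlap but not called (log2 −0.15, SE 0.10, limma adjusted p = 0.397). Another Csf1r probe set ran the other way without overlap, at 46.6, 70.8 and 54.0 in MBD2-/- leukaemia and 44.8, 45.9 and 42.8 in MBD2 wt leukaemia. On the remaining probe set the genotypes overlapped, so the direction rests on the probe set used. Adgre1 was at background on all 12 arrays, and the complement genes C1qb and C1qc on all 6 leukaemia arrays. Summed over the 13 genes, intensity ranged from 370 to 556 in MBD2-/- leukaemia and from 464 to 527 in MBD2 wt leukaemia, so the genotypes overlapped. Lyz1 and Lyz2, the lysozyme genes, were lower in MBD2-/- leukaemia. Lyz2 read 36.9, 26.4 and 30.7 in MBD2-/- leukaemia and 63.2, 52.3 and 50.8 in MBD2 wt leukaemia (log2 −0.59, SE 0.125, limma adjusted p = 0.0201). Lyz1 read 40.3, 14.4 and 19.7 in MBD2-/- leukaemia and 85.6, 55.7 and 64.5 in MBD2 wt leukaemia (log2 −1.09, SE 0.25, limma adjusted p = 0.0270). The Lyz1 probe set belongs to a class that can bind transcripts of related genes, and the one Lyz1 probe set outside that class stayed between 5.20 and 8.97 on all 12 arrays, so the Lyz1 reading is uncertain. With all probe sets of Lyz1 averaged the difference was −0.58. Both lysozyme calls were lost without MBD2 wt array 1 or 2 or MBD2-/- array 2, and the Lyz1 call also without MBD2 wt array 3 or MBD2-/- array 3 (highest adjusted p = 0.0961). A fit of all 12 arrays lost both (adjusted p = 0.163 for Lyz1 and 0.338 for Lyz2).

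The Cd163 promoter is shown because this gene rose above background only in MBD2-/- leukaemia, on arrays 1 and 3. Its window is chr6:124304401-124304700 on the plus strand of GRCm38.p6, with CpG dinucleotides in capitals.
Cd163: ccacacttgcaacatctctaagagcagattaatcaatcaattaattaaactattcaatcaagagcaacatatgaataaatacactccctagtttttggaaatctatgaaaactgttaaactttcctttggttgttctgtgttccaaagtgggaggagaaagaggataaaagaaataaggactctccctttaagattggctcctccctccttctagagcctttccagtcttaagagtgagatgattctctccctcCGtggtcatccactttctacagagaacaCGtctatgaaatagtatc
It holds 2 CpG dinucleotides, and 14.1% of all promoter windows hold fewer. RefSeq promoter windows were at hand for 25 of the 34 genes. In 16 of them every window held at most 4 CpG, against 38.0% of all windows, where the median was 7, and 2 genes, Pax5 with 23 and H2-DMa with 29, had a window above the upper quartile of 20. A CpG count says nothing of methylation, which was not analysed here.

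**Figure D3:**
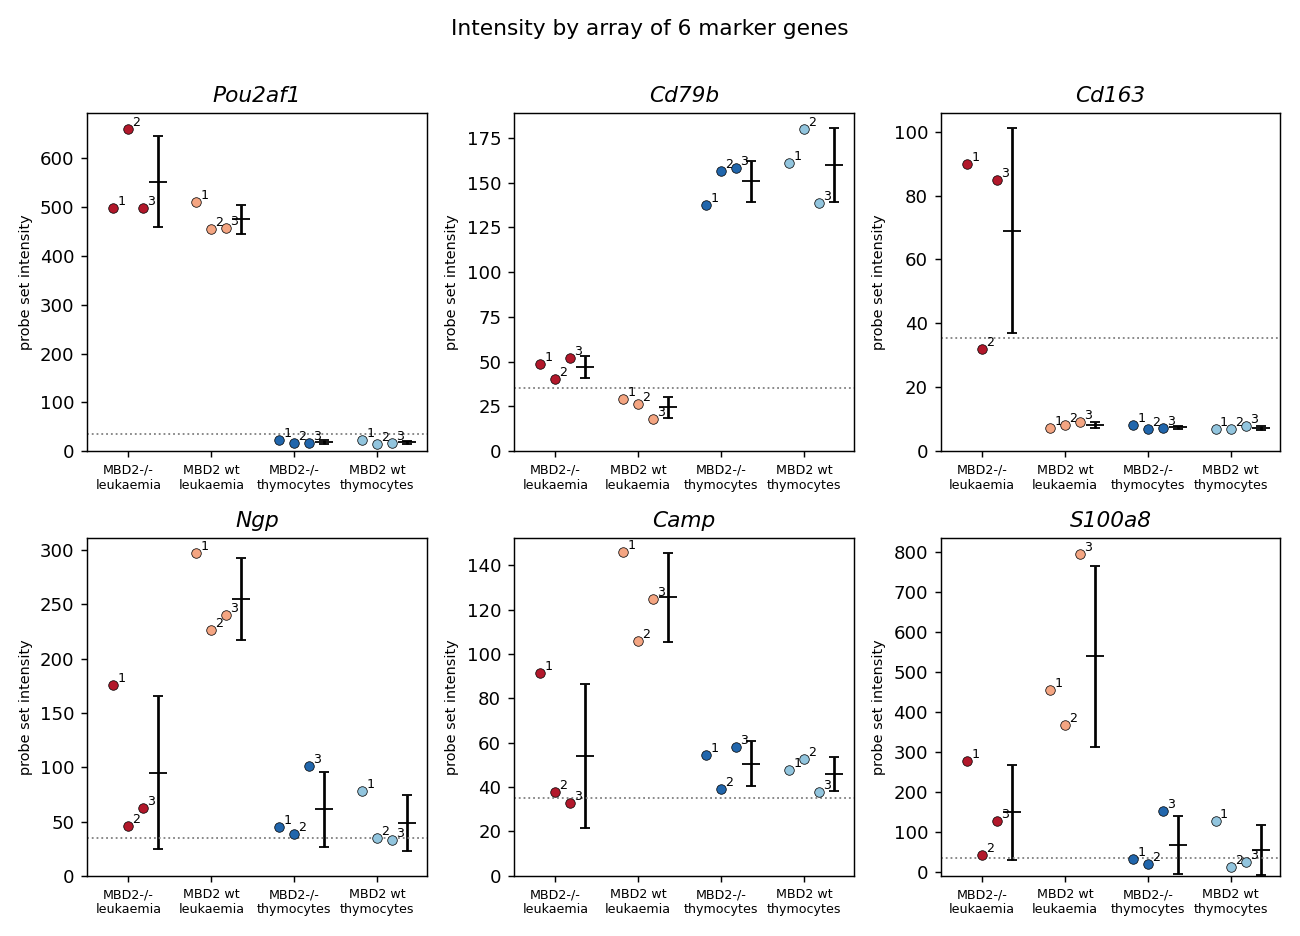
Probe set intensity (vertical axis, linear) of 6 marker genes on each array, numbered by replicate, in the 4 groups, with the group mean and SD beside the points (n = 3) and background at 35.3 as a dotted line; the axis runs below 0 where a bar does. Pou2af1 separates leukaemias from thymocytes, and Cd163 is above background only on arrays 1 and 3 of MBD2-/- leukaemia, while Ngp, Camp and S100a8 are highest in MBD2 wt leukaemia.

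Most granulocyte genes were higher in MBD2 wt leukaemia than in MBD2 wt thymocytes. There 6 of 7 were higher, against 19.7% of all genes, and 0 were lower, with a median log2 difference of 1.19 against 0.06 over all genes tested. With the replicate block Elane, the neutrophil elastase gene, passed too. On all 7 the leukaemia arrays read above the wild-type thymocyte arrays, against 27.6% of all genes, but Mpo was at background on all of these arrays and Elane on all but MBD2 wt leukaemia array 2, so the readings of these genes have no firm order. S100a8 and S100a9 encode the subunits of calprotectin, an abundant neutrophil cytosol protein. S100a8 read 278, 43.2 and 127 in MBD2-/- leukaemia and 454, 367 and 795 in MBD2 wt leukaemia, and 33.2, 20.1 and 152 in MBD2-/- thymocytes and 127, 11.8 and 25.6 in MBD2 wt thymocytes. S100a9 read 249.95, 37.1 and 133 in MBD2-/- leukaemia and 398, 274 and 711 in MBD2 wt leukaemia. In thymocytes it read 41.5, 23.5 and 104 without MBD2 and 107, 10.9 and 18.5 with it. The 3 wild-type leukaemia arrays were the highest of the 12 for both genes, and the thymocytes reached the range of the MBD2-/- leukaemia on 1 array of each genotype for S100a8, and on MBD2-/- arrays 1 and 3 and MBD2 wt array 1 for S100a9.

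Ngp, a neutrophil granule protein of the cathelicidin family, read 176, 46.0 and 62.9 in MBD2-/- leukaemia and 298, 227 and 240.5 in MBD2 wt leukaemia. In thymocytes it read 44.7, 38.4 and 101 without MBD2 and 78.4, 35.04 and 33.1 with it. Camp, the cathelicidin antimicrobial peptide, read 91.3, 37.7 and 33.0 in MBD2-/- leukaemia and 146, 106 and 125 in MBD2 wt leukaemia. Ltf, the lactoferrin of secondary granules, read 47.4, 30.0 and 16.4 in MBD2-/- leukaemia and 76.2, 63.7 and 68.3 in MBD2 wt leukaemia. For these 5 genes each wild-type leukaemia array was above the other 9 arrays, and MBD2-/- array 1 was the highest of its group for all 5. In MBD2 wt leukaemia minus MBD2 wt thymocytes the log2 differences were 3.26 for S100a8 (SE 0.60, limma adjusted p = 0.00521), 3.19 for S100a9 (SE 0.60, limma adjusted p = 0.00569), 2.12 for Ngp (SE 0.26, limma adjusted p = 8.90e-04), 1.19 for Camp and 0.94 for Ltf. Mpo, an enzyme of primary granules, was called higher by 0.39 (SE 0.09, limma adjusted p = 0.0173) but lay at background on all arrays, and its call was lost without MBD2 wt leukaemia array 2 or 3 or thymocyte array 2.

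Between leukaemia genotypes all 7 granulocyte genes had negative differences, with a median of −1.10 against −0.06 over all genes, and for 6 of them, Mpo at background among these, every MBD2-/- array was below every wild-type array, against 18.4% of all genes. By the test 2 passed as lower, against 6.98% of all genes, Ltf (log2 −0.91, SE 0.23, limma adjusted p = 0.0431) and Mpo at background (log2 −0.36, limma adjusted p = 0.0429), and both calls were lost when single arrays were left out (Mpo without any 1 of the 6, Ltf without any wild-type array or MBD2-/- array 2, highest adjusted p = 0.144). Ngp (log2 −1.46, SE 0.40, limma adjusted p = 0.0510), Camp (log2 −1.10, limma adjusted p = 0.0515), S100a8 (log2 −1.96, SE 0.57, limma adjusted p = 0.0647) and S100a9 (log2 −1.79, limma adjusted p = 0.0979) did not pass. Equal replicate numbers correlated between the leukaemia genotypes, though no label states that they are pairs. Using the number as a block also raised the count of lower genes over all genes tested. With that block Ngp (limma adjusted p = 0.00748), Camp (0.00781), S100a8 (0.0139), S100a9 (0.0135) and the macrophage and natural killer cell adaptor Tyrobp (0.0462) passed as well. Without MBD2-/- array 1, the first 4 of these passed too. Summed over the list, granulocyte intensity ran from 242 to 887 in MBD2-/- leukaemia and from 1106 to 1996 in MBD2 wt leukaemia. The leukaemia cells were sorted as GFP+, a gate that would remove granulocytes without the GFP mark, and the part of such cells in these readings was not tested. In bulk samples fewer granulocytes among the sorted cells and less of these transcripts per cell cannot be told apart. Control poly-A transcripts, which are added to RNA before labelling, gave signal on MBD2-/- array 1 and MBD2 wt arrays 1 and 2, and none on the other 3 leukaemia arrays. Within the arrays with that signal the S100a8 difference was −0.53 (1 array against 2), and within those without it −3.14 (2 against 1). With the poly-A signal as a block the calls of Ltf (log2 −0.78, adjusted p = 0.0537) and Mpo (log2 −0.36, adjusted p = 0.0642) were lost, and Ngp passed as lower (log2 −1.20, adjusted p = 0.0442). In MBD2-/- leukaemia minus MBD2-/- thymocytes, 0 of 7 granulocyte genes passed in limma and 0 had an unadjusted p under 0.05, against 38.5% of all genes.

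Of the 6 MHC class II genes, 5 lay above background on all 12 arrays and Ciita lay near it. H2-Aa and Cd74 were lower in MBD2 wt leukaemia than in MBD2 wt thymocytes, and H2-Ab1 was higher in MBD2-/- leukaemia than in MBD2-/- thymocytes. H2-Aa, the alpha chain of I-A, read 132, 51.2 and 48.9 in MBD2-/- leukaemia and 41.0, 49.2 and 39.7 in MBD2 wt leukaemia. In thymocytes it read 98.4, 51.5 and 78.8 without MBD2 and 424, 160.1 and 93.6 with it. Array 1 of the MBD2 wt thymocytes was the highest of all 12 on this probe set. The wild-type leukaemia arrays were all below the wild-type thymocyte arrays on it. As for Lyz1, it belongs to the class that can bind transcripts of related genes. On another H2-Aa probe set these groups overlapped. That one read 38.2, 49.2 and 57.9 in MBD2 wt leukaemia and 121, 69.2 and 37.04 in MBD2 wt thymocytes. On a further one they did not overlap, at 32.9, 46.6 and 68.3 against 224, 113 and 85.9. H2-Aa was lower in MBD2 wt leukaemia than in MBD2 wt thymocytes by log2 −1.79 (SE 0.46, limma adjusted p = 0.0210), and without thymocyte array 1 by −1.23 (adjusted p = 0.00946). The call was lost without any 1 of the 3 MBD2 wt leukaemia arrays (highest adjusted p = 0.0718), and averaging the gene's 4 probe sets gave −0.88 (adjusted p = 0.0477). Cd74, the invariant chain that escorts class II molecules, read 42.4, 68.0 and 58.8 in MBD2 wt leukaemia and 297, 146 and 101 in MBD2 wt thymocytes. The difference was −1.34 (SE 0.35, limma adjusted p = 0.0225), and −0.94 without thymocyte array 1 (adjusted p = 0.0225), and its call was lost without MBD2 wt leukaemia array 1 or 2 (highest adjusted p = 0.0851).

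H2-Ab1, the beta chain of I-A, read 343, 252 and 213 in MBD2-/- leukaemia and 166, 143 and 147 in MBD2-/- thymocytes, with no overlap. It was higher by log2 0.74 (SE 0.17, limma adjusted p = 0.0170), and the call was lost without thymocyte array 2 or 3 or with its probe sets averaged (highest adjusted p = 0.0794). In the wild type it read 227, 259 and 225 in leukaemia and 246, 144 and 133 in thymocytes (log2 0.45, SE 0.22, limma adjusted p = 0.164), and without thymocyte array 1 the difference was 0.71 (adjusted p = 0.00908). Ciita, the transactivator, stayed between 18.9 and 36.8 on the 12 arrays. Between leukaemia genotypes 0 of the 6 class II genes passed in limma and 0 had an unadjusted p under 0.05, against 29.0% of all genes. All 6 were highest of the leukaemia arrays on MBD2-/- array 1, where 11.7% of all genes tested were highest, though Ciita read 35.7 there, near background. That array was singled out after its values were seen, and it alone of the MBD2-/- leukaemia arrays carried poly-A signal. Within arrays with that signal (1 against 2) the genotype differences were log2 1.28 for H2-Aa and 1.07 for H2-DMa. Within those without it (2 against 1) they were 0.25 and 0.12. Summed class II intensity was 935, 581 and 541 in MBD2-/- leukaemia and 500.4, 558 and 524 in MBD2 wt leukaemia.

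Promoter windows of 2 class II genes are shown because both were highest on array 1 of the MBD2 wt thymocytes and because class II promoters carry the X and Y boxes that the Ciita complex uses. The X box core was searched as AG, 2 bases of any kind, AC, 1 base of any kind and GATG, and the Y box as CTGATTGG on both strands, and 0.968% of all promoter windows hold the first and 4.1% the second. H2-Aa is chr17:34287774-34288073 on the minus strand and H2-Eb1 is chr17:34305617-34305916 on the plus strand, both in GRCm38.p6, with matches in capitals.
H2-Aa: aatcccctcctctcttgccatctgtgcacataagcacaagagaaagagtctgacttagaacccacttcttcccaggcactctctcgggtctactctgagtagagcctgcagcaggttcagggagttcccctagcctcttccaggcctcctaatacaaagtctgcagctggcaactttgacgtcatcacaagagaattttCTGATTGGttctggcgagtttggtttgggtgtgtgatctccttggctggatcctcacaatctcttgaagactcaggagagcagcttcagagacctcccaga
H2-Eb1: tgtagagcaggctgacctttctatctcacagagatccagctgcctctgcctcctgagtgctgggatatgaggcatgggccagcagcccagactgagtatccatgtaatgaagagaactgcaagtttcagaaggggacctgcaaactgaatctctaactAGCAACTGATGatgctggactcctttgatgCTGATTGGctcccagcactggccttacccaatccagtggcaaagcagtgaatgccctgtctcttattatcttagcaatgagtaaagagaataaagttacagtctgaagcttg
The Y box begins 51 bases before the H2-Aa start and 62 before the H2-Eb1 start, and the X box core 92 before the H2-Eb1 start. Of the other 23 genes with a window, S100a9 alone held the X box core, on the minus strand, and none held the Y box. The octamer ATGCAAAT, found in 1.74% of windows, occurred among the 25 genes in Blnk alone. A match is a stretch of letters, not a bound site.

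Array 1 of the MBD2 wt thymocytes stood apart from the other 5 thymocyte arrays. It was the highest of all 12 arrays for 13 of the 34 genes, or 38.2%, against 8.55% of all genes tested. They were 10 of the 13 macrophage genes (Lyz1, Lyz2, C1qa, C1qb, C1qc, Cd68, Fcgr3, Tyrobp, Fcer1g and Mpeg1) and 3 of the 6 class II genes (H2-Aa, H2-Eb1 and Cd74), with Fcgr3 at background there and so without firm order. This array was singled out after its values were seen, so no test is given. Lyz2 read 33.8, 33.2 and 73.1 in MBD2-/- thymocytes and 172, 51.9 and 40.7 in MBD2 wt thymocytes. C1qb, a chain of complement C1q made by tissue macrophages, read 8.07, 7.90 and 11.4 in MBD2-/- thymocytes and 46.8, 14.02 and 10.02 in MBD2 wt thymocytes. C1qb passed the filter only through MBD2 wt thymocyte arrays 1 and 2 and MBD2-/- leukaemia array 1, so it adds no support here. Its other probe sets read 16.5 and 6.84 on MBD2 wt thymocyte array 1, at background. Mpeg1, a pore-forming protein of macrophages, read 36.8, 38.5 and 32.5 in MBD2-/- thymocytes and 97.2, 54.6 and 26.2 in MBD2 wt thymocytes. Summed over the 13 macrophage genes the values were 397, 414 and 518 in MBD2-/- thymocytes and 1188, 506 and 488 in MBD2 wt thymocytes. The class II sums were 600.3, 477 and 506 in MBD2-/- thymocytes and 1340.1, 737 and 536 in MBD2 wt thymocytes. The thymocyte gate kept CD4+CD8+ cells, a gate that would remove macrophages and dendritic cells, and the part of such cells in these readings was not tested. Adgre1 and Cd163 were at background on that array. Csf1r read 72.9 there on the probe set used, within the range of 54.5 to 80.3 of the other thymocyte arrays. On the other Csf1r probe sets that array was the highest of the thymocyte arrays, at 65.9 against 41.0 to 55.7 and at 71.1 against 39.8 to 55.2.

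**Figure D4:**
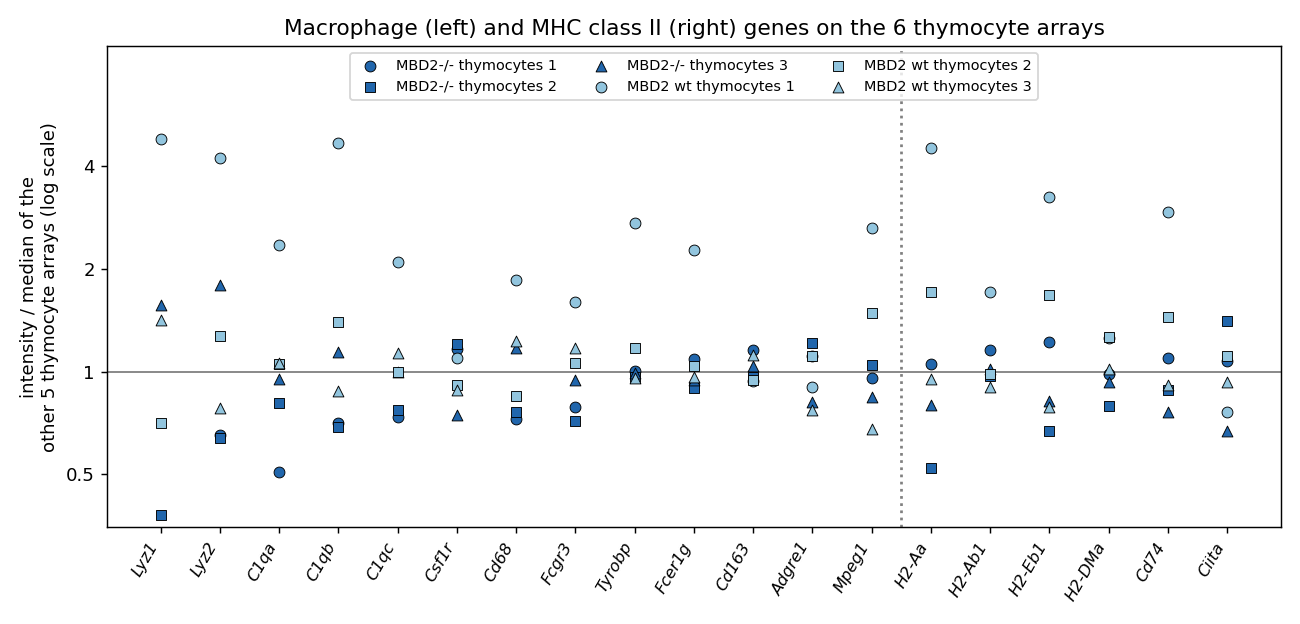
Intensity of each macrophage gene (left of the dotted line) and MHC class II gene (right) on each of the 6 thymocyte arrays, divided by the median of the other 5 thymocyte arrays, on a log axis where 1 is that median. Array 1 of the MBD2 wt thymocytes (light circles) is the highest thymocyte array for 10 of 13 macrophage genes, Fcgr3 at background among them, and 4 of 6 class II genes. Lyz1 and Lyz2 stand there at 4.79 and 4.22 times that median.

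Between MBD2-/- and MBD2 wt thymocytes, where 0 of the 34 genes passed in limma, 3 of 34 had an unadjusted p under 0.05, against 4.68% of all genes. These were Fcgr3, H2-Aa and H2-DMa, each lower in MBD2-/- cells, although Fcgr3 was at background on all arrays. MBD2 wt thymocyte arrays 1 and 2 carried poly-A signal and no MBD2-/- thymocyte array did, so genotype and this signal largely coincide. Within the arrays without signal (3 against 1) the log2 differences were −0.28 for H2-Aa, −0.13 for H2-DMa and −0.26 for Fcgr3. H2-Aa gave log2 −1.18 (SE 0.48, limma adjusted p = 0.982), and array 1 of the wild type was the highest. The granulocyte genes were scattered, with array 3 of the MBD2-/- thymocytes highest of the 6 for Ngp, Camp and S100a8. Their sums were 258, 187 and 486 in MBD2-/- thymocytes and 435, 171 and 180.3 in MBD2 wt thymocytes.

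Related genes outside the list were counted the same way, from lists of cell-type genes, with up to 4 passing genes named per list by smallest p. In MBD2-/- minus MBD2 wt leukaemia, the comparison in which 9.19% of all genes were higher and 6.98% lower, 3 of 14 further B cell genes tested were higher and 2 lower. Blk, a Src-family kinase of B cells, read 526, 860.2 and 557 in MBD2-/- leukaemia and 48.4, 52.7 and 42.6 in MBD2 wt leukaemia, while thymocytes of both genotypes read between 38.5 and 60.7 (leukaemia difference log2 3.34, SE 0.19, limma adjusted p = 8.78e-05). Every MBD2-/- leukaemia array was far above the other 9. Syk, the kinase downstream of the B cell receptor, read 129, 131 and 137 in MBD2-/- leukaemia and 27.5, 21.0 and 21.4 in MBD2 wt leukaemia (log2 1.92, SE 0.10, limma adjusted p = 6.43e-05), a difference of 0.87 with the gene's 4 probe sets averaged. Thymocytes of both genotypes read 176 to 219.9, so wild-type leukaemia alone was at background, and MBD2-/- leukaemia was at least 3.75-fold higher. Bst1, an ectoenzyme of marrow stroma and early lymphoid cells, read 44.1, 27.6 and 27.1 in MBD2-/- leukaemia and 639.8, 614 and 414 in MBD2 wt leukaemia (log2 −3.54, SE 0.21, limma adjusted p = 9.23e-05), and thymocytes of both genotypes were at background. Ighm, the immunoglobulin mu heavy chain, was lower in MBD2-/- leukaemia by −1.42 (SE 0.18, limma adjusted p = 0.00215), with 979.5, 939 and 706 in MBD2-/- leukaemia and 2589.9, 1929.7 and 2583 in MBD2 wt leukaemia. Thymocytes of both genotypes read 5922 to 7428. With the 11 probe sets of Ighm averaged the difference was −0.26 (adjusted p = 0.0351), so its size rests on the probe set used.

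Of 7 further plasmacytoid dendritic genes tested, 3 were higher in MBD2-/- leukaemia, against 9.19% of all genes, and 0 lower, against 6.98%. The defining gene of the marker list, Siglech, read 19.8, 27.3 and 26.5 in MBD2-/- leukaemia and 26.4, 31.2 and 32.2 in MBD2 wt leukaemia, all at background. Tcf4, the E protein that directs plasmacytoid dendritic cells and is active in early thymocytes too, read 325, 243 and 407 in MBD2-/- leukaemia and 17.8, 31.2 and 28.7 in MBD2 wt leukaemia (log2 3.01, SE 0.21, limma adjusted p = 1.82e-04). Thymocytes of both genotypes read 291 to 365, so wild-type leukaemia alone was at background, and MBD2-/- leukaemia was at least 9.02-fold higher. Irf7 was higher by 1.61 (SE 0.18, limma adjusted p = 0.00155) and Spib by 0.92 (SE 0.24, limma adjusted p = 0.0434), and the Spib call was lost without any wild-type array and without MBD2-/- array 1 or 2 (highest adjusted p = 0.131). Irf7 is a regulator of interferon genes and Spib an Ets factor of B and plasmacytoid dendritic cells. Of 20 further class II and dendritic genes, Irf8, a factor of monocytes and dendritic cells, was higher, at 288, 168 and 151 in MBD2-/- leukaemia and 71.5, 59.6 and 53.5 in MBD2 wt leukaemia (log2 1.45, SE 0.23, limma adjusted p = 0.00687). Ifi30, a reductase of antigen processing, was lower by −1.19 (SE 0.25, limma adjusted p = 0.0208), a call lost without any 1 wild-type array (highest adjusted p = 0.0815).

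**Figure D5:**
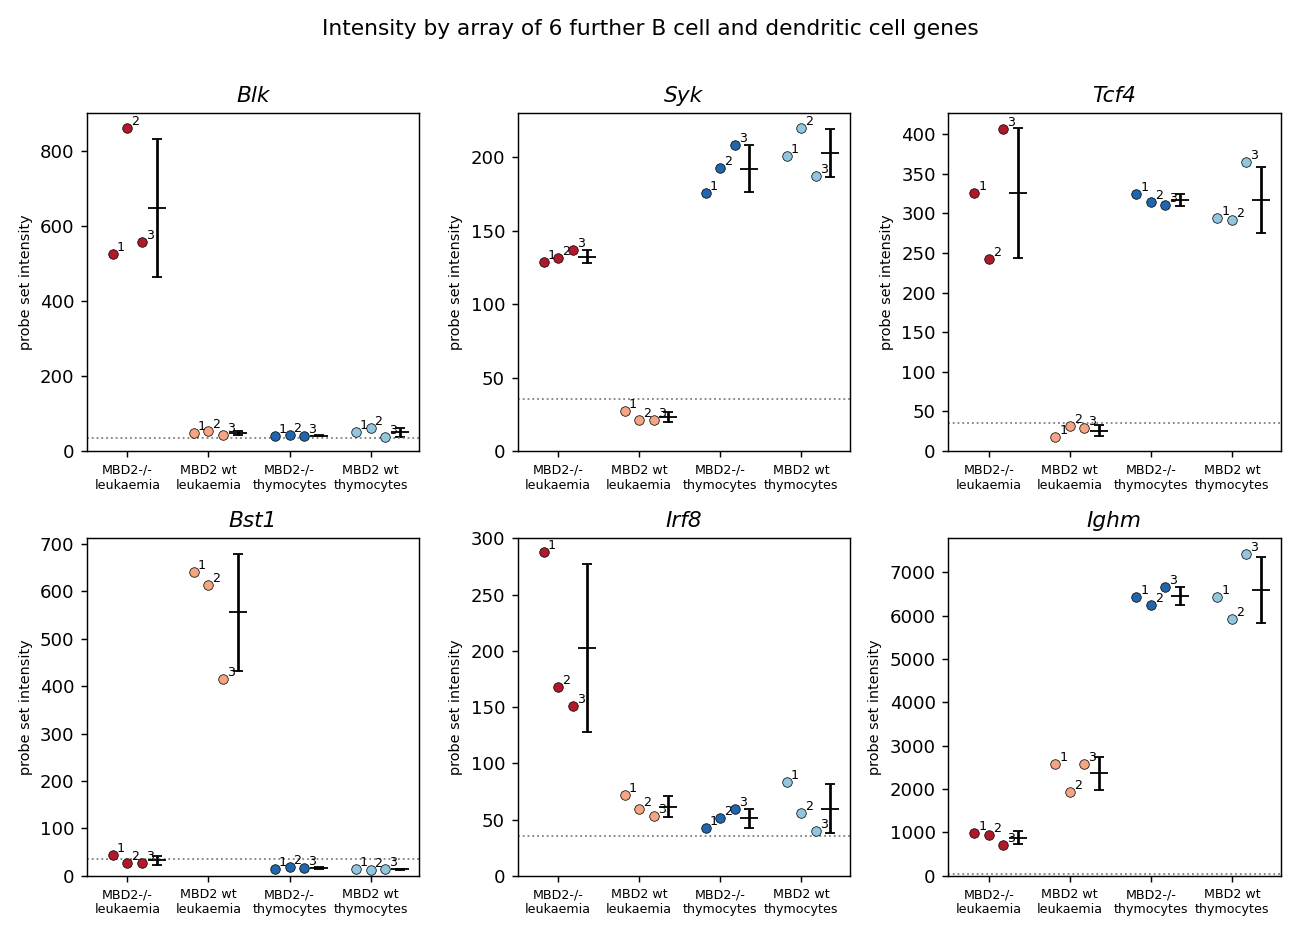
Probe set intensity (vertical axis, linear) of 6 genes named beside the list, on each array numbered by replicate, with group mean and SD (n = 3) and background at 35.3 as a dotted line. Blk and Irf8 are highest in MBD2-/- leukaemia, Bst1 in MBD2 wt leukaemia, and Syk and Tcf4 are at background in MBD2 wt leukaemia.

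Of 21 further macrophage genes tested, 1 was lower in MBD2-/- than in MBD2 wt leukaemia, against 6.98% of all genes, and 0 were higher, against 9.19%. The lower one was Hmox1, the haem oxygenase gene (log2 −0.44, SE 0.09, limma adjusted p = 0.0212). Its call was lost without MBD2 wt array 1 or 2 or MBD2-/- array 1 or 2 (highest adjusted p = 0.0914). Of 13 further granulocyte genes, 1 was lower there, against 6.98% of all genes, and 0 were higher, against 9.19%. It was Padi4, at 24.7, 20.1 and 30.9 in MBD2-/- leukaemia and 96.5, 109 and 113 in MBD2 wt leukaemia (log2 −1.58, SE 0.13, limma adjusted p = 3.19e-04). The MBD2-/- leukaemias were at background, and Padi4 was at least 3.01-fold lower there. Thymocytes read 221 to 356 without MBD2 and 174 to 203 with it, so Padi4, an enzyme that citrullinates histones, was dimmest in MBD2-/- leukaemia and brightest in thymocytes. In MBD2 wt leukaemia minus MBD2 wt thymocytes 4 of 13 were higher, against 19.7% of all genes, and 1, Padi4, was lower, against 14.2%. Among those higher were Chil3 (log2 1.72, SE 0.19, limma adjusted p = 5.97e-04, at least 2.17-fold above thymocytes at background) and Lcn2 (log2 0.81, SE 0.13, limma adjusted p = 0.00275), which encode a chitinase-like protein and a siderophore-binding protein of neutrophils. Lcn2 was at or near background on all arrays. The myeloid factor Spi1 read between 38.1 and 63.99 on all 12 arrays and Cebpa was at background. Of 5 erythroid genes tested, 3 were lower in MBD2-/- than in MBD2 wt leukaemia (Slc4a1, Epor and Alas2), against 6.98% of all genes. Calls of Slc4a1 and Alas2 were lost when single arrays were left out (highest adjusted p = 0.0782 and 0.0915). Klf1, an erythroid transcription factor, ran the other way without passing, at 79.2, 100.6 and 118 in MBD2-/- leukaemia and 64.8, 40.01 and 64.7 in MBD2 wt leukaemia (log2 0.68, SE 0.19, limma adjusted p = 0.0602). In MBD2 wt leukaemia minus MBD2 wt thymocytes 4 of 5 were higher, against 19.7% of all genes. Their summed intensity was 217 to 249 in MBD2-/- leukaemia, 286 to 373 in MBD2 wt leukaemia, 110.2 to 131 in MBD2-/- thymocytes and 107 to 134 in MBD2 wt thymocytes, and the part of other marrow cells in the result was not tested.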

How the data were processed

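RNA from sorted mouse cells was labelled as biotin cRNA from 7 µg of total RNA per sample, per the labels, and read on 12 Affymetrix mouse expression arrays, 3 per group. The authors deposited probe set linear intensities between 3.07 and 21620, and the way they were summarized and normalized is not given in the sources used here. No normalization was added, the array medians being 5.71 to 5.79 in log2 units. Genes were named from the platform annotation. Of a gene's probe sets that name no other gene, the brightest by mean log2 value was used, as log2(intensity + 16). A gene was tested where it exceeded its array's 25th percentile on 3 or more arrays, which kept 15420 of 18193 genes. All 34 marker genes passed the filter, 29 of them on all 12 arrays, and Cd163 through its 3 MBD2-/- leukaemia arrays only. C1qb passed only through MBD2-/- leukaemia array 1 and MBD2 wt thymocyte arrays 1 and 2.

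Each pair of groups was compared in its own linear model by lmFit and eBayes of limma 3.58.1 (R 4.3.3), and a gene was called where its p, adjusted by Benjamini-Hochberg over all genes tested, was under 0.05; the difference between genotype effects came from a fit of all 12 arrays. Every adjusted p quoted is limma's. With 3 arrays against 3 the smallest two-sided exact p is 0.1. The number of arrays limits the precision.

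Across genes, after group means were removed, equal replicate numbers correlated at 0.401, 0.235 and 0.549 between leukaemia genotypes. Between wild-type leukaemias and thymocytes they correlated at 0.445, 0.443 and 0.583. A fit with the replicate number as a block was therefore run as an alternative, while the main fits did not treat these numbers as pairs. Between thymocyte genotypes (−0.523, 0.145 and −0.494) and between MBD2-/- leukaemias and thymocytes (−0.391, 0.0940 and −0.428) they did not pair. No label states that equal numbers are pairs, and the correlations came from these same arrays. Added poly-A control transcripts gave signal on 5 arrays and none on 7. The Gapdh 3' to 5' ratio was 0.964 to 1.14 on those 5 and 1.12 to 3.68 on the other 7. In wild-type leukaemias and thymocytes, arrays 1 and 2 carried the signal and arrays 3 did not. Between leukaemia genotypes, both arrays 1 carried it, both arrays 3 did not, and arrays 2 differed. What equal numbers share beyond this signal was not tested.

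All the probe sets of a gene, other constants and filters, other scaling, array blocks and leaving out each array were tried as alternatives. The members, gene lists and tests were chosen with earlier results of these data known. The code was tested on simulated data. Genes are named by the rule that any member may be named in each comparison, with up to 4 passing genes of each other list by smallest p. Promoters are from RefSeq (GRCm38.p6). Plots used matplotlib 3.10.9 in Python 3.11.15.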

Additional observations from a re-analysis of the deposited data

Results flagged for a closer look

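The effect of the MBD2 deletion differed between leukaemia and thymocytes for 2 of the 34 genes, by the test of that difference over all 12 arrays. For Cd163, the haemoglobin scavenger receptor, the deletion effect in leukaemia minus that in thymocytes was 1.72 on the log2 scale (SE 0.33, limma adjusted p = 0.00495). The gene passed the filter on low values only through its MBD2-/- leukaemia arrays, so it had to differ once tested, and neither this p nor its repeats under other settings add support. Of the 4 groups 3 lay at background. For Cd79b, a chain of the B cell receptor, it was 0.72 (SE 0.19, limma adjusted p = 0.0284). That call was lost in 9 of 22 alternatives, with adjusted p up to 0.0707.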

How the results depend on the processing

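Of 22 calls on the marker genes in 5 comparisons, 12 passed under every alternative in which the gene was tested, 10 were lost under at least 1 and 0 reversed. The 12 include the calls of Cd163, which the filter at the array median left untested. Cd163 passed the main filter only through its MBD2-/- leukaemia arrays, so its repeats add no support. Of 84 calls on other named genes 67 passed throughout, 17 were lost under at least 1 and 0 reversed. In MBD2-/- minus MBD2 wt leukaemia, where 1417 genes were higher and 1076 lower, 1656 were lower with centring on the 75th percentile and 1936 with the replicate block, and the share of calls that were higher was 56.8%, or 45.0% with that centring. Of the markers there, 1 was higher with the filter at the array median, and 7 were lower with that filter, with that centring and with constant 1, 2 with constant 64, 8 with eBayes trend and robust, and 9 with the replicate block. Between thymocyte genotypes 3 genes were higher and 2 lower; the higher count was 6 with that centring and with trend, 0 with the poly-A block and with the replicate block, and 8 with all 12 arrays in 1 fit, and the lower count was 5, 5, 1, 0 and 5 in the same order and 4 with constant 1. In MBD2 wt leukaemia minus thymocytes, the markers lower were 5 with constant 1 and with the poly-A block, 1 with constant 64, 6 with trend and 8 with the replicate block. In MBD2-/- leukaemia minus thymocytes they were 2 with constant 1, trend and all 12 arrays. For the difference between genotype effects, 1119 genes were lower with that centring, against 731, and the share higher was 47.8% against 62.4%. Of the markers, 1 was higher with that centring, constant 64 and the filter at the median, and the lower count was 3 with that centring, 2 with trend, the poly-A block and the replicate block, and 1 with quantile normalization, constant 1, no filter, the median filter and probe sets averaged. The cause of these changes was not tested.

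Without 1 array at a time, the leukaemia genotype comparison gave 877 to 1432 genes higher and 535 to 1057 lower, with 1 to 2 markers higher and 0 to 7 lower. Between thymocyte genotypes it gave 0 to 2 higher and 1 to 2 lower, with 0 markers. Wild-type leukaemia minus thymocytes gave 2333 to 2994 higher and 1568 to 2352 lower, with 6 to 8 markers higher and 1 to 6 lower. The same in MBD2-/- cells gave 2038 to 2861 higher and 1252 to 1622 lower, with 2 to 3 markers higher and 1 lower. The difference between genotype effects gave 953 to 1294 higher and 562 to 809 lower, with 1 to 4 markers higher and 0 to 3 lower. The filter at the array median left Cd163 out. Precision is limited by 3 arrays a group and by readings near background, where 7 markers lay throughout.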

Other observations

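Of 15 T-lineage genes tested, 7 were lower in MBD2-/- than in MBD2 wt leukaemia, against 6.98% of all genes, and 0 higher, against 9.19%. The 4 with the smallest p were Ptcra (log2 −5.08, limma adjusted p = 6.72e-06), Cd8b1 (log2 −5.57, limma adjusted p = 9.88e-05), Cd4 (log2 −1.39, limma adjusted p = 1.99e-04) and Thy1 (log2 −2.37, limma adjusted p = 2.01e-04). Some genes of 3 further cell-type lists passed between the leukaemia genotypes too, where 16.2% of all genes did. Klrd1, a receptor chain of natural killer cells, read 309, 315 and 175 in MBD2-/- leukaemia and 18.1, 10.4 and 14.3 in MBD2 wt leukaemia (log2 3.19, SE 0.23, limma adjusted p = 1.99e-04), at least 7.3-fold higher than a wild-type group at background, while the other 4 genes of that list did not pass. Epcam, an adhesion molecule of epithelium, read 357, 277 and 169 in MBD2-/- leukaemia and 43.0, 41.7 and 22.8 in MBD2 wt leukaemia (log2 2.42, SE 0.29, limma adjusted p = 0.00173; 1.20 with its probe sets averaged), and the other 7 genes of the thymic epithelium list did not pass. Slc4a1, the anion exchanger of red cells, read 32.5, 21.5 and 22.4 in MBD2-/- leukaemia and 120.4, 53.6 and 144 in MBD2 wt leukaemia (log2 −1.48, SE 0.31, limma adjusted p = 0.0192; −0.92 with its probe sets averaged). The MBD2-/- group was at background, at least 2.77-fold lower, and the call was lost without MBD2 wt array 1 or MBD2-/- array 2 (highest adjusted p = 0.0782). Epor, the erythropoietin receptor, was lower too (log2 −0.67, SE 0.12, limma adjusted p = 0.0117).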
